A study of Arabidopsis thaliana with 48 samples.

Results

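10 genes of cuticular wax synthesis and export were followed through 48 RNA libraries of Arabidopsis thaliana seedlings. They were taken by identifier from count tables of 28496 genes: LACS2 (AT1G49430), KCR1 (AT1G67730), CER10 (AT3G55360), CER2 (AT4G24510), CER1 (AT1G02205), CER3 (AT5G57800), MAH1 (AT1G57750), CER4 (AT4G33790), WSD1 (AT5G37300) and LTPG1 (AT1G27950). All 10 were in every table. A filter on low counts kept 7 of them among 18909 genes tested, and CER4, MAH1 and WSD1 did not pass it. LTPG1, CER3 and CER10 rose together after induction of CNA, of PHB and of CNA-SDdelta, and were below or near their mock level in CNA-KnC3HDZ. In PHB-SDdelta LTPG1 and CER3 were called higher, and CER10 was higher in all induced libraries but not called.

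Wax covers the outer face of the epidermis of shoots and limits the loss of water. Its precursors are very-long-chain acyl chains, which a membrane-bound elongase complex lengthens in repeated rounds. They are then turned into alkanes, secondary alcohols and ketones by the alkane branch, or into primary alcohols and esters by the alcohol branch, and carried through the plasma membrane and wall to the surface. LACS2 is a long-chain acyl-CoA synthetase known above all for cutin, the polyester below the wax. KCR1 and CER10 are the ketoacyl and enoyl reductases of the elongase, and CER2 is a partner that the elongase needs for its longest products. CER1 and CER3 act together in alkane formation, MAH1 hydroxylates alkanes, CER4 makes primary alcohols, WSD1 joins them to acyl chains as wax esters, and LTPG1 is a lipid transfer protein anchored at the outside of the plasma membrane that takes part in wax export.

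The study's aim, as its design text states it, was to find genes regulated by class III homeodomain leucine zipper (HD-ZIPIII) transcription factors, to which CORONA (CNA) and PHABULOSA (PHB) belong. The 8 lines are named as labelled. Alongside CNA and PHB stood an SDdelta form of each (CNA-SDdelta and PHB-SDdelta) and the lines CNA-SmHOX32, CNA-PpHOX32, CNA-KnC3HDZ and CNA-KnC3HDZ_8m. The submitters mention chimeric CNA constructs. The suffixes are not explained in the labels, which also leave out the promoter of the constructs and the number of transformants behind a line. T2 seedlings on agarose received 10 sprays when 9 days old. The spray held β-estradiol at 50 µM for induced groups and none for mock groups, in a carrier of DMSO at 1% with Silwet L-77 at 0.005%, and whole seedlings were collected 24 h later, at 10 days. Each of the 16 groups held 3 libraries, called biological replicates in the titles. The p-values rest on the spread between replicates, estimated together over all 48 libraries. No line without a construct is labelled, so that an effect of estradiol itself cannot be told apart from that of a construct.

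The smallest library total was 1808765 counts (PHB induced replicate 3), the median 5944946.5 and the largest 37222617 (CNA-KnC3HDZ induced replicate 2). Thinned to the smallest total, libraries held between 13369 and 18293 detected genes, and the lowest value was in the CNA-SmHOX32 mock group. The spread between replicates was widest in CNA-SmHOX32 and CNA-PpHOX32, with biological coefficients of variation of 91.5% and 79.5% against 60.9% over all lines. It was narrowest in CNA-KnC3HDZ, at 36.4%. The test shares the spread of a gene over all lines, so it can be too wide for some lines and too narrow for others. Fitted on its own libraries, CNA-KnC3HDZ had 1610 genes at adjusted p under 0.05 instead of 624, and CNA-SmHOX32 had 804 instead of 1914. Reads of the CNA gene rose in 5 of the 6 lines whose label starts with CNA, with log2 fold changes from 1.30 to 1.89. In CNA-SDdelta its log2 fold change was 0.99 (adjusted p = 0.216), and the PHB gene rose by 3.65 in PHB and 2.06 in PHB-SDdelta. Whether a construct's transcript carries the 3' end of the native gene, where this assay reads, is not given in the sources used here. Leaf mesophyll, shoot epidermis and root markers were detected in every group of these whole seedlings, with 1 of 4 root markers at 0 in 4 groups. The 3 mesophyll markers, photosynthesis genes with near-identical copies, had lower summed means after induction in all 8 lines, for example 16000 CPM (counts per 1000000 of the scaled library total) in CNA mock and 5870 in CNA induced. In whole seedlings, fewer cells of a type and less RNA per cell cannot be told apart.

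The sequence before the gene start is shown for the 3 genes that moved together and for CER1, whose level varied most. These are the 250 bases upstream of the annotated start of each gene, read 5′ to 3′ on its own strand from the TAIR10.1 assembly of RefSeq, with capitals for matches to the motifs named below.
LTPG1, chr1:9740258-9740507, plus strand: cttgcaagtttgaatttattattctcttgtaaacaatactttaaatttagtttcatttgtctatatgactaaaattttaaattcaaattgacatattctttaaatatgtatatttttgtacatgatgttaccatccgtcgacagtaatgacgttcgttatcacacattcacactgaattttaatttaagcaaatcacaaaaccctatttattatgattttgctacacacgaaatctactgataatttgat
CER3, chr5:23419934-23420183, plus strand: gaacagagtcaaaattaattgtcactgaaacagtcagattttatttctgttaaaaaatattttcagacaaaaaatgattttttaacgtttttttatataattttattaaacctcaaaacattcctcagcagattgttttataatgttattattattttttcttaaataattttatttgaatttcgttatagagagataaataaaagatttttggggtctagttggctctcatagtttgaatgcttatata
CER10, chr3:20523099-20523348, minus strand: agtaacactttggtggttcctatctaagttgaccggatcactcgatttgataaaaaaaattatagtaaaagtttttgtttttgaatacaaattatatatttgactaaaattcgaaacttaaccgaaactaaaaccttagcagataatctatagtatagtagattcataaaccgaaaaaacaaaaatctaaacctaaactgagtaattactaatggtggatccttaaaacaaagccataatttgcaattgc
CER1, chr1:418166-418415, plus strand: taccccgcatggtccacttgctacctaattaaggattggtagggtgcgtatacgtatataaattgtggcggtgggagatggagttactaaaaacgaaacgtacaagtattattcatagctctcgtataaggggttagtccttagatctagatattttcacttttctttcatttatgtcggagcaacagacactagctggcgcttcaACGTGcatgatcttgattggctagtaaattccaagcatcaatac
The motifs searched, on both strands, were the palindromic HD-ZIPIII site GTAATNATTAC, its core ATNATTAC, which lies inside it, the L1 box of epidermal genes (TAAATGTA or TAAATGCA), the core of the abscisic acid response element (ACGTG) and the GCC box (GCCGCC). In the window from 250 bases before to 50 after the start, the abscisic acid core was in 3 of the 10 genes (CER1, CER2 and CER4) and in 26.9% of 26709 promoters of protein-coding genes. CER1 carries it where the run above is in capitals. The other motifs were in 0 of the 10 genes in that window.

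From 1000 bases before to 50 after the start, the full HD-ZIPIII site was in 0 of the 10 genes and in 0.2% of all promoters. The core was in 3 of the 10 and in 26.9% of all promoters, the L1 box in 1 of the 10 and in 16.4%, the abscisic acid core in 5 of the 10 and in 56.7%, and the GCC box in 1 of the 10 (MAH1) and in 9.1%. The HD-ZIPIII cores and the L1 box, the motifs tied to HD-ZIP proteins and to the epidermis, are shown with 11 bases on each side, on the strand of the gene, with the match in capitals.
CER1, HD-ZIPIII core, chr1:418013-418042, plus strand: acagtgctatgATCATTACatcttaactaa
CER10, HD-ZIPIII core, chr3:20523852-20523881, minus strand: tttttaattttATCATTACtttttttaact
LACS2, HD-ZIPIII core, chr1:18290200-18290229, plus strand: gggctgaccttGTAATAATatagggagcag
LTPG1, L1 box, chr1:9740230-9740259, plus strand: tatggtatggaTGCATTTAatactcttcct
The match of CER1 lies partly in the annotated last exon of its neighbour AT1G02190 (CER1-LIKE1). A match describes letters only, and no binding was measured here.

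Levels differed widely between the genes. CPM use library totals scaled by edgeR's TMM method and are not divided by length, since reads come from the transcript end. Over 48 libraries the median was highest for LTPG1, CER2, CER10, CER3 and KCR1 (medians of 161, 115, 97.8, 76.4 and 55.3 CPM), and it was 5.64 CPM for LACS2 and 4.49 CPM for CER1. CER4 reached at most 14 counts in a library, in CNA-KnC3HDZ mock replicate 3, and lay at or under 3 counts in 46 of 48. MAH1 reached at most 4 counts and was at 0 in 40 libraries, and WSD1 reached 73 counts in CNA-PpHOX32 mock replicate 2 and was at 0 in 23. The alcohol, ester and alkane hydroxylation steps were therefore not testable at this depth, where 3 counts stand for 0.08 CPM in the largest library and 1.5 CPM in the smallest.

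**Figure D1:**
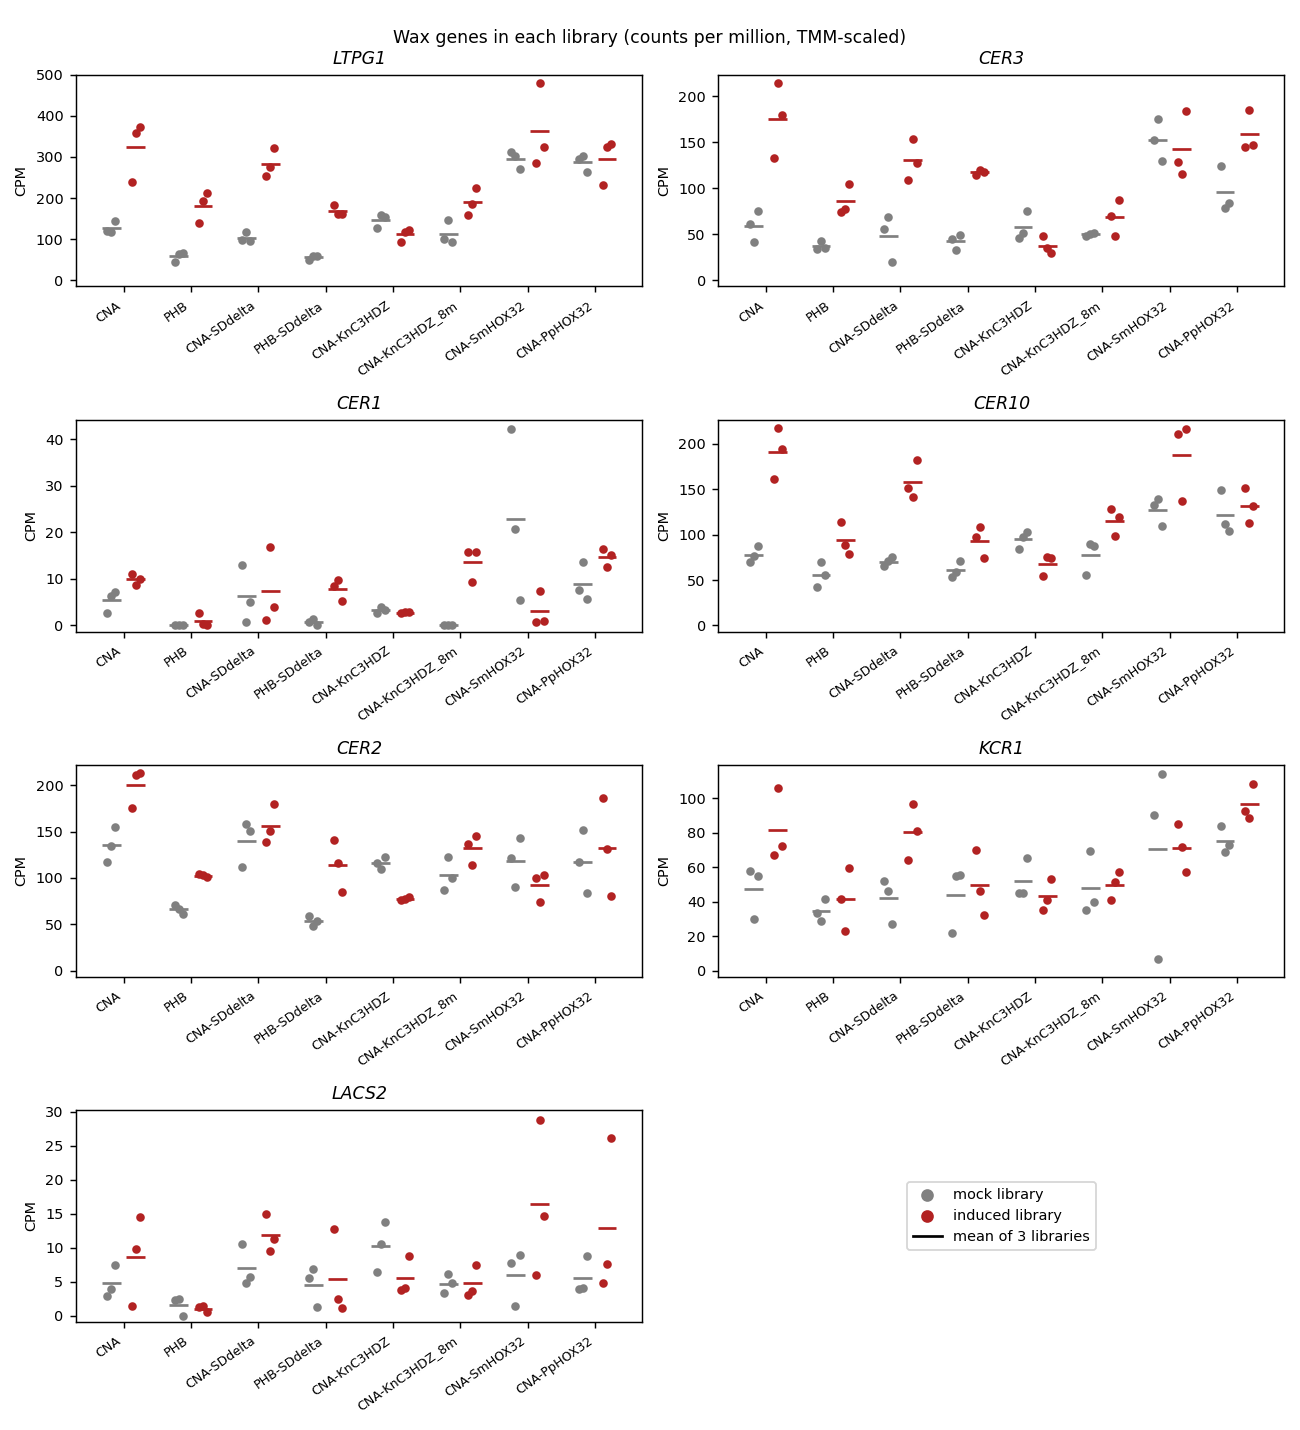
CPM (y axis) of the 7 tested wax genes in each library of the 8 lines (x axis), grey for mock and red for induced, with a bar at the mean of 3 libraries. Induced LTPG1 libraries lie above all mock libraries of their line in 5 lines and below them in CNA-KnC3HDZ, and CER1 mock libraries are at or near 0 in PHB and CNA-KnC3HDZ_8m.

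LTPG1, the export gene, rose in 5 lines, more than any other of the 7. In CNA it stood at 121, 117 and 144 CPM in mock libraries and 240, 358 and 372 CPM in induced ones. The PHB libraries gave 44.7, 64.3 and 65.5 CPM in mock and 139, 193 and 212 CPM in induced. In both lines every induced library lay above every mock library, with log2 fold changes of 1.34 ± 0.21 (SE, adjusted p = 4.4e-06) in CNA and 1.64 ± 0.22 (adjusted p = 3.41e-08) in PHB. CNA-SDdelta had 98.4, 117 and 95 CPM in mock and 254, 276 and 322 CPM in induced libraries. PHB-SDdelta had 49.2, 59.7 and 58.6 CPM in mock and 183, 162 and 160 CPM in induced. Again the groups did not overlap, and the log2 fold changes were 1.46 ± 0.21 (adjusted p = 1.6e-06) and 1.59 ± 0.22 (adjusted p = 1.16e-07). A smaller rise was found in CNA-KnC3HDZ_8m, from 101, 146 and 93.6 CPM to 159, 185 and 224 CPM. Its log2 fold change was 0.74 ± 0.21 (adjusted p = 0.0181), and it missed the threshold when 1 of 3 libraries was left out (adjusted p up to 0.148), namely induced replicate 3, mock replicate 1 or mock replicate 3.

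The other 3 lines did not show a called change of LTPG1. In CNA-KnC3HDZ the mock libraries had 126, 158 and 153 CPM and the induced ones 93.1, 118 and 123 CPM, so that all induced libraries were the lower ones, at a log2 fold change of -0.39 ± 0.21 (adjusted p = 0.641). CNA-SmHOX32 had 313, 303 and 270 CPM in mock and 285, 479 and 324 CPM in induced libraries. CNA-PpHOX32 had 296, 303 and 263 CPM in mock and 232, 324 and 332 CPM in induced. The libraries of these last lines overlapped, and their mock levels already lay near the induced level of CNA. Ordered by mean, the 16 groups ran from 55.8 ± 5.7 CPM (SD, n = 3) in PHB-SDdelta mock to 363 CPM (285 to 479 CPM) in CNA-SmHOX32 induced. Libraries of neighbouring groups overlapped in 12 of 15 steps. The steps without overlap followed PHB mock (58.2 CPM), CNA-KnC3HDZ mock (146 CPM) and CNA-KnC3HDZ_8m induced (189 CPM).

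CER3, which works with CER1 in alkane formation, rose in CNA, PHB and both SDdelta lines. The CNA libraries had 60.9, 42 and 74.8 CPM in mock and 133, 214 and 180 CPM in induced. Those of PHB had 34.2, 42.6 and 35.1 CPM in mock and 74.6, 77.9 and 105 CPM in induced. No library of one treatment reached those of the other, and the log2 fold changes were 1.57 ± 0.29 (adjusted p = 5.96e-05) and 1.20 ± 0.29 (adjusted p = 0.00219). CNA-SDdelta went from 55.4, 68.5 and 19.9 CPM to 109, 154 and 128 CPM, and PHB-SDdelta from 45.2, 32.6 and 49.6 CPM to 114, 120 and 118 CPM. Both changes were called, at 1.43 ± 0.28 (adjusted p = 0.00039) and 1.47 ± 0.29 (adjusted p = 0.000184). CNA-KnC3HDZ had 45.7, 51.6 and 75 CPM in mock and 48.6, 34.5 and 29.5 CPM in induced libraries, which overlapped (log2 fold change -0.61 ± 0.28, adjusted p = 0.427). In CNA-SmHOX32 the mock libraries, at 153, 175 and 130 CPM, already lay in the range of the induced ones, at 129, 116 and 184 CPM. CNA-PpHOX32 had 124, 78.1 and 84.2 CPM in mock and 145, 185 and 147 CPM in induced, all higher but not called (0.73 ± 0.28, adjusted p = 0.12).

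CER1 had low counts that differed between replicates by large factors, so its values are given as counts or with their libraries. In CNA-KnC3HDZ_8m, mock libraries held 1, 0 and 0 counts and induced libraries 87, 81 and 46 counts. This was the clearest rise of CER1. The induced libraries, with 13.5 ± 3.7 CPM (SD, n = 3), were at least 19.6-fold higher than a floor of 3 counts per mock library, and the change was called (adjusted p = 9.05e-05). In PHB the mock libraries held 0, 0 and 0 counts and the induced ones 22, 1 and 0. The call in PHB (adjusted p = 0.00659) rested on induced replicate 1, without which the adjusted p was 0.375, and it was also lost without mock replicate 1 (adjusted p = 0.0519). PHB-SDdelta had 0.812, 1.43 and 0 CPM in mock and 8.48, 9.71 and 5.13 CPM in induced libraries, with no overlap. Its log2 fold change of 3.33 ± 1.07 (adjusted p = 0.0433) missed the threshold whichever of the 6 libraries was left out, with adjusted p up to 0.229.

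CER1 was called lower in CNA-SmHOX32, where libraries overlapped. The mock libraries had 42.1, 20.7 and 5.5 CPM and the induced ones 0.812, 7.45 and 0.87 CPM, a log2 fold change of -2.90 ± 0.99 (adjusted p = 0.0477) that was lost without mock replicate 1 or 2 or induced replicate 1 or 3 (adjusted p up to 0.171). In CNA, mock libraries had 2.76, 6.25 and 7.22 CPM and induced ones 11.1, 8.69 and 9.86 CPM. All induced libraries were the higher ones, yet the change of 0.88 ± 0.93 was not called (adjusted p = 0.666). CNA-SDdelta ranged from 0.639 to 13 CPM in mock and from 1.21 to 16.8 CPM in induced libraries, and the treatments overlapped. CNA-KnC3HDZ stayed between 2.62 and 3.84 CPM in all 6 libraries. The 16 group means of CER1 ran from 0 CPM in PHB mock to 22.8 ± 18 CPM in CNA-SmHOX32 mock, and in 0 of 15 steps of that order were neighbouring groups free of overlap.

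CER10, the enoyl reductase of the elongase, rose in CNA, PHB and CNA-SDdelta. In CNA it went from 70.2, 77 and 87 CPM to 161, 218 and 194 CPM (log2 fold change 1.29 ± 0.23, adjusted p = 3.7e-05). CNA-SDdelta went from 64.9, 70.8 and 75.2 CPM to 151, 141 and 182 CPM (1.17 ± 0.23, adjusted p = 0.000291). These groups were well apart. PHB libraries rose from 42.5, 69.4 and 55.1 CPM to 114, 88.9 and 79 CPM without overlap, by 0.76 ± 0.23 (adjusted p = 0.0196). That call was lost without PHB induced replicate 1, mock replicate 1 or mock replicate 3, at adjusted p up to 0.174. It was also lost with no filter on low counts and with only the compared libraries (adjusted p up to 0.0911). PHB-SDdelta, with 53.6, 58.3 and 70.6 CPM in mock and 97.4, 108 and 73.8 CPM in induced libraries, was not called (0.62 ± 0.23, adjusted p = 0.102). All its induced libraries were the higher ones, and with only the compared libraries the change was called (adjusted p = 0.0351). The response of CER10 in PHB-SDdelta differed from that in PHB by -0.15 ± 0.32, which was not called. CNA-KnC3HDZ had 83.7, 97.3 and 103 CPM in mock and 54.1, 75.3 and 73.8 CPM in induced libraries, all lower and not called (-0.48 ± 0.23, adjusted p = 0.447).

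CER2, the elongase partner, was called in PHB-SDdelta alone of the 8 lines. It went there from 58.8, 47.7 and 53.6 CPM to 141, 116 and 84.4 CPM, with no overlap (log2 fold change 1.09 ± 0.24, adjusted p = 0.000771). CNA gave 117, 135 and 155 CPM in mock and 176, 211 and 214 CPM in induced libraries (0.56 ± 0.23, adjusted p = 0.136), and PHB 71.1, 66 and 61.2 CPM and then 104, 103 and 101 CPM (0.63 ± 0.23, adjusted p = 0.0804). Neither line overlapped between treatments, neither was called, and both passed the threshold after a correction for GC content (adjusted p = 0.0348 and 0.03). That correction also raised the median log2 fold change of all genes, to 0.08 in CNA and 0.10 in PHB. In CNA-KnC3HDZ it went the other way, from 116, 110 and 123 CPM to 75.7, 77.3 and 79.3 CPM (-0.58 ± 0.23, adjusted p = 0.249). That decrease was called when the line was fitted on its own libraries (adjusted p = 0.0276). Reads of CER2 could include those of ATR1 (AT4G24520) on the opposite strand, which overlaps it by 96 bases at the 3' end, was at 72.9 to 150 CPM in group means and was not called in any of the 8 inductions. Overlaps of CER10 with AT3G55350 and of LTPG1 with ECT9, by 27 and 23 bases, concern partners at 0.543 to 4.95 CPM and 1.21 to 7.33 CPM.

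KCR1 and LACS2 were not called in any induction. KCR1, the ketoacyl reductase, had 57.8, 29.8 and 55.1 CPM in CNA mock and 67, 106 and 72.2 CPM in CNA induced libraries (log2 fold change 0.78 ± 0.42, adjusted p = 0.296). CNA-SDdelta gave 0.94 ± 0.42 (adjusted p = 0.248), and the other 6 lines lay between -0.27 and 0.36. CNA-SmHOX32 mock replicate 2 stood apart for KCR1 with 19 counts, or 6.46 CPM, beside 90.4 and 114 CPM in its replicates. LACS2, the acyl-CoA synthetase, ran from 0 CPM in PHB mock replicate 3 to 28.8 CPM in CNA-SmHOX32 induced replicate 2, and its log2 fold changes, from -0.89 to 1.43, had SEs from 0.88 to 0.96.

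**Figure D2:**
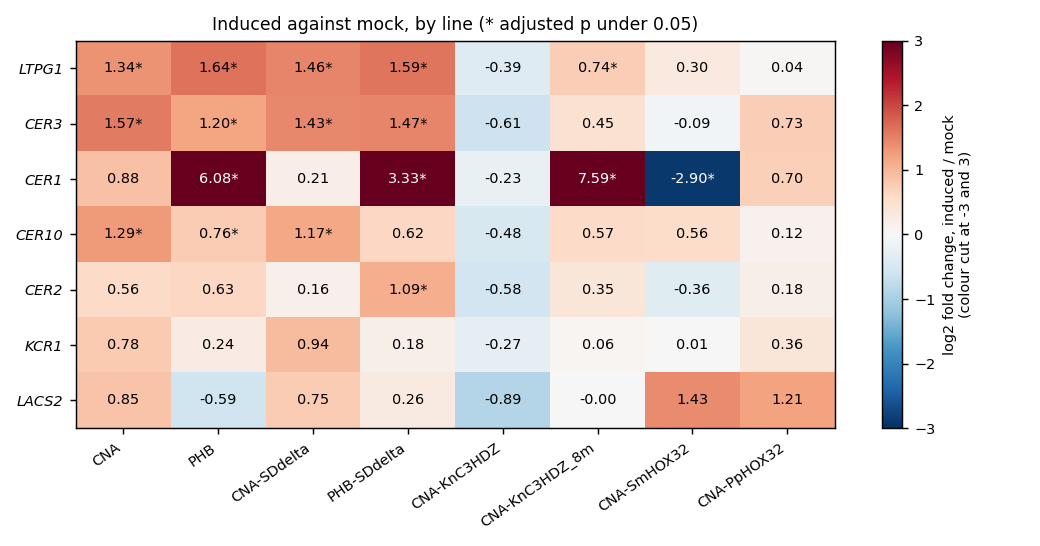
Log2 fold change of induced over mock for 7 wax genes (rows) in 8 lines (columns), red for higher and blue for lower, with the value in each cell, a star at adjusted p under 0.05 and colours cut at 3. LTPG1, CER3 and CER10 are red in the columns of CNA, PHB and both SDdelta lines, with a star in all but CER10 in PHB-SDdelta. All 7 genes are blue in CNA-KnC3HDZ, where no cell has a star. The fitted CER1 values of PHB (6.08) and CNA-KnC3HDZ_8m (7.59) depend on the prior count of the fit, since their mock libraries held at most 1 count.

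Counted over the lines, 17 of 56 pairs of a tested gene and a line were called, 16 higher and 1 lower. Among all 18909 genes tested, a line had between 624 (CNA-KnC3HDZ) and 1914 (CNA-SmHOX32) called in either direction. Some of the 17 calls stayed called in only 0 to 4 of 6 fits without a library. These were CER1 in PHB, PHB-SDdelta and CNA-SmHOX32, CER10 in PHB and LTPG1 in CNA-KnC3HDZ_8m. CNA induction called 3 of 7 genes, all higher, beside 4.05% of all genes tested called higher. PHB induction called 4 of 7, all higher, beside 4.44% of all genes, and 2 of 7 when the line was fitted on its own libraries or without induced replicate 1 or mock replicate 1. CNA-SDdelta called 3 of 7 and PHB-SDdelta 4 of 7, all higher, beside 2.71% and 3.59% of all genes. The median log2 fold change of the 7 genes was 0.88 in CNA, 0.76 in PHB, 0.94 in CNA-SDdelta and 1.09 in PHB-SDdelta, and that of all genes lay between -0.08 and 0.07 in these lines. With CER1 set at a floor-based value of 1.34 in PHB, the median there was again 0.76. It could not change, since this value and the fitted one both lie above it. The value is no lower bound, since only 1 PHB induced library exceeded the floor.

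CNA-KnC3HDZ induction called 0 of 7 genes with edgeR, beside 3.3% of all genes, and 0 of 7 with DESeq2. All 7 log2 fold changes were below 0, with a median of -0.48 against 0.01 for all genes, and 3 of them had an unadjusted p under 0.05. CNA-KnC3HDZ_8m called 2 of 7 genes higher, LTPG1 and CER1, beside 3.51% of all genes, with a median of 0.45. Setting CER1 at its bound of 4.29 could not move that median, which lies below it. CNA-SmHOX32 called 1 of 7, CER1, lower, beside 5.38%. CNA-PpHOX32 called 0 of 7 with edgeR, beside 5.48%, with 1 at an unadjusted p under 0.05 and 0 with DESeq2. All 7 log2 fold changes there were above 0, with a median of 0.36 against -0.02 for all genes. Averaged over the 8 lines, induction called 5 of 7 genes higher, beside 14.2% of all genes. The average log2 fold changes were 0.84 ± 0.07 for LTPG1, 0.77 ± 0.10 for CER3, 0.58 ± 0.08 for CER10, 0.25 ± 0.08 for CER2 and 1.96 ± 0.39 for CER1, at adjusted p from 1.82e-14 to 0.0138. The last of these contains the prior-dependent values of CER1. The average call of CER2 was lost with no filter on low counts and on thinned counts (adjusted p up to 0.195).

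Differences between responses were tested as such, each as the log2 fold change of one line minus that of another. LTPG1, CER3 and CER10 responded less in CNA-KnC3HDZ than in CNA, by -1.73 ± 0.30 (adjusted p = 0.000137), -2.18 ± 0.40 (adjusted p = 0.000421) and -1.77 ± 0.32 (adjusted p = 0.000344). These were 3 of 7 genes, beside 1.09% of all genes, and they stayed called in all 12 fits that left out a library. On thinned counts CER10 was lost (adjusted p = 0.0545). CER2 came near, at -1.15 ± 0.33 (adjusted p = 0.0548). In CNA-KnC3HDZ_8m the responses of LTPG1, CER10 and CER1 were higher than in CNA-KnC3HDZ, which were 3 of 7 beside 2.26%. LTPG1 differed by 1.12 ± 0.30 (adjusted p = 0.0138), which was lost without CNA-KnC3HDZ induced replicate 1 or CNA-KnC3HDZ_8m induced or mock replicate 3 (adjusted p up to 0.0664), and CER10 by 1.06 ± 0.32 (adjusted p = 0.0436). CER1 was called (adjusted p = 0.00151), with the rise of at least 19.6-fold in CNA-KnC3HDZ_8m beside a log2 fold change of -0.23 ± 0.93 in CNA-KnC3HDZ. CER10 was lost in 8 of 12 fits without a library, with adjusted p up to 0.196, and stayed called without CNA-KnC3HDZ mock replicate 1 or CNA-KnC3HDZ_8m induced replicate 2, mock replicate 2 or mock replicate 3. Of 8 other settings, 3 called CER10. It was lost with DESeq2 size factors, no filter on low counts, thinned counts, a replicate block and GC correction (adjusted p up to 0.434).

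Compared with CNA, the response was also lower in CNA-SmHOX32 for CER3, by -1.66 ± 0.40 (adjusted p = 0.00975), and for LTPG1, by -1.05 ± 0.30 (adjusted p = 0.0363), which were 2 of 7 beside 1.61% of all genes. LTPG1 in this comparison stayed called in 4 of 12 fits without a library, those without replicate 3 of either mock group, CNA induced replicate 1 or CNA-SmHOX32 induced replicate 2, with adjusted p up to 0.101 in the others. CER3 stayed called in 11 of 12, being lost without CNA mock replicate 2 (adjusted p = 0.0532). In CNA-PpHOX32 the response of LTPG1 was lower than in CNA by -1.31 ± 0.30 (adjusted p = 0.0158), 1 of 7 genes beside 0.698%, and this was lost without CNA mock replicate 2 (adjusted p = 0.0583). In both HOX32 lines every mock library of LTPG1, CER3 and CER10 lay above every CNA mock library. The responses of PHB and CNA, of CNA-SDdelta and CNA, and of PHB-SDdelta and PHB differed in 0 of 7 genes by edgeR and by DESeq2 at the threshold, beside 1.44%, 0.106% and 0.111% of all genes, with 1, 0 and 0 genes at an unadjusted p under 0.05. For LTPG1 these differences were 0.29 ± 0.30, 0.11 ± 0.30 and -0.04 ± 0.30, and for CER3 they were -0.37 ± 0.40, -0.13 ± 0.40 and 0.27 ± 0.40. The comparisons with CNA share its 6 libraries.

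**Figure D3:**
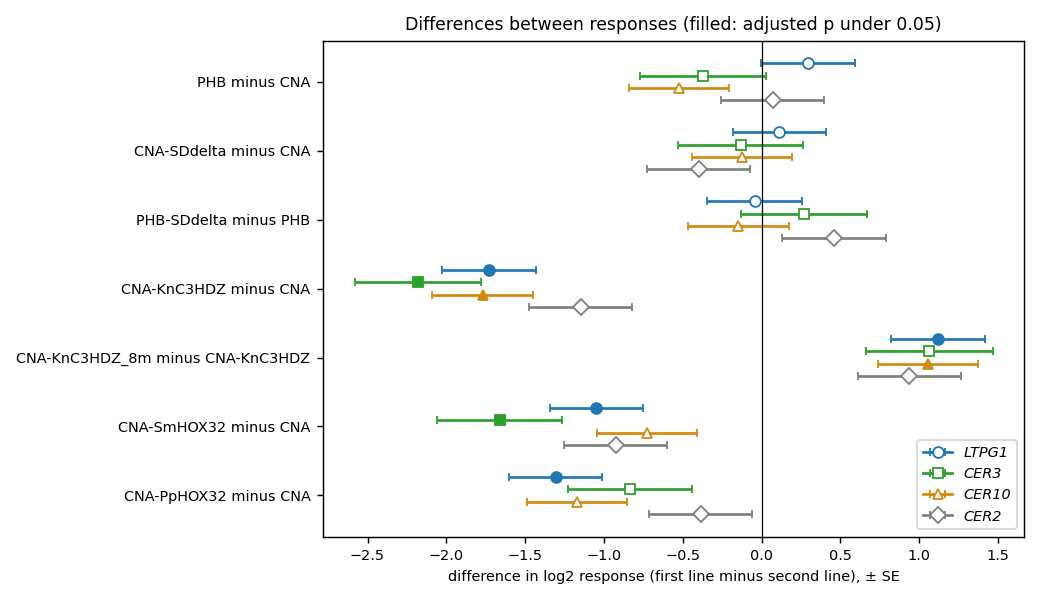
Difference in log2 response between pairs of lines (x axis, first line minus second, ± SE) for LTPG1, CER3, CER10 and CER2, with filled symbols at adjusted p under 0.05. All 4 genes lie left of 0 for CNA-KnC3HDZ against CNA, where LTPG1, CER3 and CER10 are filled, and right of 0 for CNA-KnC3HDZ_8m against CNA-KnC3HDZ.

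Mock levels of the wax genes already differed between lines. A test across the 8 mock groups called 5 of 7 genes, beside 17.9% of all genes, at adjusted p from 2.07e-16 for LTPG1 to 3.18e-05 for CER10, and KCR1 (adjusted p = 0.331) and LACS2 (adjusted p = 0.556) were not called. LTPG1 mock means were 55.8 ± 5.7 and 58.2 ± 12 CPM (SD, n = 3) in the PHB lines, between 103 and 146 CPM in 4 CNA lines, and 295 ± 23 and 287 ± 21 CPM in CNA-SmHOX32 and CNA-PpHOX32. CER3 had its highest mock mean, 152 ± 22 CPM, in CNA-SmHOX32 and its lowest, 37.3 ± 4.6 CPM, in PHB. CER1 had its lowest mock means in PHB, CNA-KnC3HDZ_8m and PHB-SDdelta, at 0, 0.0315 and 0.747 CPM, and CNA-SDdelta mock replicate 2, at 0.639 CPM, lay within their range of 0 to 1.43 CPM. The same 3 mock groups had the lowest summed level of 7 water deficit and abscisic acid markers, with means of 404, 471 and 497 CPM against 2600 to 4460 CPM in the others. They also had the lowest sums of 5 shoot epidermis markers, which are led by LTP1, a lipid transfer protein gene. These sums were at most 1080 CPM in any of their libraries, against at least 1680 CPM in the other mock groups. A sum does not show that each marker was low. Whether these markers have a part in the differences was not tested.

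The 7 water deficit and abscisic acid markers moved with the wax genes in some lines and not in others. Of these, 4 were called higher in CNA and 6 in PHB, beside 4.05% and 4.44% of all genes. Among them was RD29A, a dehydration-induced protein gene (log2 fold change 4.11, adjusted p = 1.93e-15 in CNA and 5.55, adjusted p = 2.82e-20 in PHB). The adjacent gene RD29B rose by 3.18 and 5.24, and the dehydrin gene RAB18, which overlaps another gene, by 2.24 and 5.18. Their summed mean went from 2760 to 14300 CPM in CNA, from 404 to 8050 in PHB, from 4460 to 10200 in CNA-SDdelta and from 497 to 9490 in PHB-SDdelta. In CNA-KnC3HDZ, where no wax gene was called, it went from 2600 to 3250 CPM. There 2 of 7 markers were called higher and 2 lower, beside 1.19% and 2.11% of all genes. These 4 calls became 0 without CNA-KnC3HDZ induced replicate 2, 1 without mock replicate 2, and 2 or 3 without any other library. CNA-KnC3HDZ_8m and CNA-PpHOX32 went the way of CNA, from 471 to 13100 CPM with 7 of 7 called higher and from 4180 to 12700 CPM with 3 of 7. Of all genes, 3.51% and 1.56% were called higher in these lines. In CNA-SmHOX32 the sums were 3790 and 4020 CPM. There 1 of 7 was called higher, RD29A from 390 to 1650 CPM, beside 4.74% of all genes. The 2 called lower were RAB18 from 2160 to 980 CPM and ABF3 from 311 to 183 CPM, beside 5.38%. These 3 calls became 1 without CNA-SmHOX32 induced replicate 3, and 2 or 3 without any other library. The part of these genes in the changes of the wax genes was not tested.

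Outside CNA-KnC3HDZ and CNA-SmHOX32, summed shoot epidermis markers shifted less than the water deficit markers. The summed mean of the epidermis markers went from 2320 to 2780 CPM in CNA, from 858 to 2120 in PHB and from 1850 to 2190 in CNA-SDdelta. In PHB-SDdelta it went from 806 to 1080 CPM over mock libraries to 1900 to 2290 CPM over induced ones. It went down from 1950 to 1200 CPM in CNA-KnC3HDZ and up from 873 to 1870 CPM in CNA-KnC3HDZ_8m. In CNA-PpHOX32 it went from 2840 to 4600 CPM, with no wax gene called, and in CNA-SmHOX32 from 3770 to 3330 CPM. The sum is led by LTP1, a lipid transfer protein gene that rose by 1.71 in PHB (adjusted p = 3.69e-10). By contrast ATML1 and PDF2, the homeodomain regulators that define the layer, fell by 1.25 and 1.06 there (adjusted p = 0.00229 and 0.0116). CNA differed from PHB, and PDF1 alone of the epidermis markers was called, higher by 1.585 (adjusted p = 0.0055). LTP1, ATML1, PDF2 and HDG1 were not called in CNA, at 0.27, -0.52, -0.35 and 0.22. The part of epidermal RNA in the changes of the wax genes was not tested.

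Other genes of the pathway were listed by role, with earlier results of these data known. Of 14 elongase, alkane and alcohol partners, 12 were tested, and 4 were called higher in CNA, 2 in PHB, 5 in CNA-SDdelta and 2 in PHB-SDdelta, with 0 lower, beside 4.05%, 4.44%, 2.71% and 3.59% of all genes called higher. The count in CNA-SDdelta was 2 without mock replicate 1, 3 without mock replicate 3 or induced replicate 1 or 2, and 4 without either of the others. KCS1, a condensing enzyme of the elongase, rose in CNA from 118 to 428 CPM (log2 fold change 1.86, adjusted p = 7.61e-09) and in PHB from 55.1 to 285 CPM (2.37, adjusted p = 3.39e-12). KCS6, the main condensing enzyme of wax in shoots, rose by 0.84 in each (adjusted p = 0.000908 and 0.000683), from 842 to 1510 CPM in CNA and from 460 to 822 CPM in PHB. Its close relative KCS5 was called in CNA (4.71, adjusted p = 4.33e-05), from 1.3 to 36.4 CPM. In CNA-KnC3HDZ no partner was called higher and 2 were called lower, beside 1.19% and 2.11% of all genes. These were KCS6 from 869 to 406 CPM (-1.10, adjusted p = 2.95e-05) and KCS10 from 225 to 150 CPM (-0.58, adjusted p = 0.0438), which were chosen after their values were seen. Without any 1 library 1 partner was called there, and the 8 other settings called 1 to 4.

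Among 5 lipid export genes, 4 were tested. In each of CNA and PHB 2 were called higher, beside 4.05% and 4.44% of all genes. Only 1 call was left in CNA without induced replicate 2, mock replicate 2 or mock replicate 3, and in PHB without mock replicate 3. LTPG2, a relative of LTPG1, went from 49.2 to 149 CPM in CNA (1.60, adjusted p = 9.09e-06) and from 42.2 to 98.6 CPM in PHB (1.23, adjusted p = 0.000444). ABCG11, a transporter of wax and cutin lipids, went from 39.5 to 92.4 CPM in CNA (1.22, adjusted p = 0.00855) and from 20.8 to 53.7 CPM in PHB (1.36, adjusted p = 0.0026), and it overlaps another gene. Of 13 regulators, 9 were tested. In CNA 3 were called higher, beside 4.05% of all genes. In PHB 1 was called higher and 1 lower, beside 4.44% and 4.99%. The count in CNA was 1 without induced replicate 2, mock replicate 1 or mock replicate 3. MYB96, an activator of wax genes under drought, rose by 1.65 in CNA (adjusted p = 6.99e-05) and 1.41 in PHB (adjusted p = 0.00053). MYB30, another activator, rose in CNA from 2.24 ± 0.86 to 14.2 ± 14 CPM (SD, n = 3; log2 fold change 2.63, adjusted p = 0.0146), and DEWAX, a repressor of wax genes, from 65.3 to 127 CPM (0.95, adjusted p = 0.0178). WRI4, an activator in stems that overlaps another gene, fell in PHB by 1.67 (adjusted p = 0.000135).

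Genes of the neighbouring barrier polymers were counted in the same way. Of 12 cutin genes, all tested, 1 was called higher in CNA and in PHB, beside 4.05% and 4.44% of all genes. This was the fatty acid hydroxylase gene CYP86A2, which overlaps another gene, with log2 fold changes of 0.91 (adjusted p = 0.00131) and 0.70 (adjusted p = 0.0146). The call in PHB was lost on thinned counts and without PHB induced replicate 2 or 3 or mock replicate 1. Of 7 suberin genes 0 were called in CNA by edgeR, beside 8.01% of all genes, with 0 at an unadjusted p under 0.05. In PHB 1 was called lower, beside 4.99% of all genes. This was ASFT, a feruloyl transferase gene that overlaps another gene, which went from 5.16 to 0.0419 CPM (adjusted p = 0.00151). The call in PHB was lost on thinned counts.

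**Figure D4:**
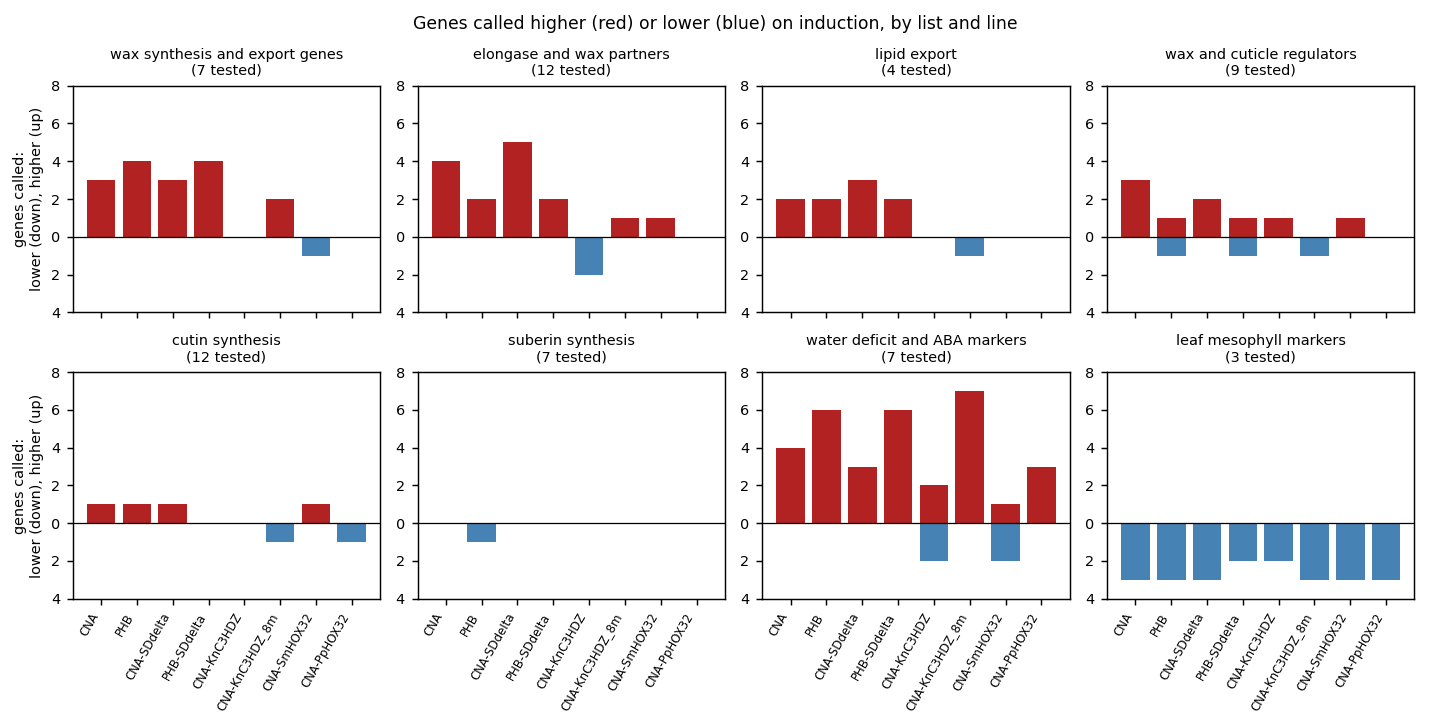
Number of genes called higher (red, up) or lower (blue, down) on induction in each of 8 lines (x axis), by list, with the number tested in each title. Wax genes have 3, 4, 3 and 4 higher calls in the first 4 lines and 0 in CNA-KnC3HDZ and CNA-PpHOX32. Water deficit markers are higher in 7 of 7 in CNA-KnC3HDZ_8m. In every line 2 or 3 of the 3 mesophyll markers are called lower, beside 2.09% to 5.38% of all genes.

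Likeness was measured as Pearson's r over the 16 group means of log2 CPM, a description in which the groups share lines, treatments and depth. LTPG1 was closest to CP1 (AT5G49480, r = 0.963), KCS1 (0.962), CYP79B2 (0.944), CAD9 (0.941) and CYTC-1 (0.94) among genes outside the 10. CER1 was closest to CIPK5 (0.925), MRB1 (0.904), AFP1 (0.894), AT3G14595 (0.891) and AT3G15350 (0.882). Within the 7 wax genes, r was 0.948 between CER10 and LTPG1, 0.905 between CER3 and LTPG1 and 0.902 between CER3 and CER10. KCR1 and CER10, both reductases of the elongase, had r = 0.806, and the lowest value was 0.392 between CER3 and LACS2. CER1 and CER3, the pair of the alkane branch, had r = 0.613.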

How the data were processed

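Gene counts of 48 QuantSeq 3' libraries of polyadenylated RNA were deposited by the authors as 1 table of raw counts per library. Trimmomatic, STAR, featureCounts and DESeq2 and the build TAIR10 are named per the submitters' processing notes. Annotation release, strand setting and use of molecular identifiers are not given in the sources used here, so floors cover counting error only. Groups came from the titles. No replicate pair agreed within sampling noise (chi-square per degree of freedom 9.67 to 52.8 over 48 pairs).

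Counts were fitted in R 4.3.3 with edgeR 4.0.16 (filterByExpr, TMM, 1 mean per group in all 48 libraries, glmQLFTest). P-values were adjusted by Benjamini-Hochberg over 18909 genes within each comparison, and adjusted p under 0.05 is "called". Every adjusted p is from this test unless said otherwise. The SE is the log2 fold change divided by the square root of F. Alternatives were DESeq2 1.42.0 (size factors, Wald test), other filters, thinning, GC correction, a replicate block, only the compared libraries and leaving out libraries. Fits that left out a library kept the filter, scaling factors and dispersions estimated with that library included. Scripts were tested on simulated data. Positions and sequences come from TAIR10.1 of RefSeq, which held 28009 of 28496 identifiers. The 10 genes, the lists, the motifs and the tests were chosen with earlier results of these data known. Named besides the 10 genes are the induced genes, up to 3 called members per list in CNA and PHB, and 5 genes most like LTPG1 and CER1. Epidermis markers and genes that overlap or neighbour the 10 are named as well. Some list members called in CNA-KnC3HDZ or CNA-SmHOX32 are also named, and were chosen after their values were seen. The SE of CER1 is approximate at its low counts.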

Additional observations from a re-analysis of the deposited data

Results flagged for a closer look

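Differences between the responses of a pair of lines that passed the interaction test of edgeR numbered 9 and are given as values. Between CNA-KnC3HDZ and CNA, the difference in log2 response was -2.18 for CER3, -1.77 for CER10 and -1.73 for LTPG1. Between CNA-KnC3HDZ_8m and CNA-KnC3HDZ it was 1.06 for CER10 and 1.12 for LTPG1, and the fitted value for CER1 was 7.82, which depends on the prior count because the mock libraries of CNA-KnC3HDZ_8m held at most 1 count. Between CNA-SmHOX32 and CNA it was -1.66 for CER3 and -1.05 for LTPG1. Between CNA-PpHOX32 and CNA it was -1.31 for LTPG1. Mock means of LTPG1 were 295 CPM in CNA-SmHOX32, 287 CPM in CNA-PpHOX32 and 127 CPM in CNA. Its induced means were 363 CPM in CNA-SmHOX32, 296 CPM in CNA-PpHOX32 and 324 CPM in CNA. CER3 went from 152 to 143 CPM in CNA-SmHOX32 and from 59.2 to 176 CPM in CNA. All of the comparisons with CNA use the same 6 CNA libraries.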

How the results depend on the processing

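The calls of CER3, CER10 and LTPG1 in CNA and CNA-SDdelta, of CER3 and LTPG1 in PHB and PHB-SDdelta, of CER2 in PHB-SDdelta and of CER1 in CNA-KnC3HDZ_8m held under 8 of 8 alternatives and 6 of 6 fits without a library. No value changed sign while called. Thinned counts gave 1 called gene in CNA-KnC3HDZ_8m, 0 in CNA-SmHOX32, 0 for CNA-KnC3HDZ_8m minus CNA-KnC3HDZ, 1 for CNA-SmHOX32 minus CNA and 0 for CNA-PpHOX32 minus CNA. Only the compared libraries gave 2 in PHB, 1 in CNA-KnC3HDZ (CER2), 0 in CNA-SmHOX32, 1 for CNA-SmHOX32 minus CNA and 0 for CNA-PpHOX32 minus CNA. DESeq2's Wald test gave 4 for CNA-SmHOX32 minus CNA and 2 for CNA-PpHOX32 minus CNA, a mean of at least 10 counts gave 2 for the latter, and no filter gave 1 for the former. The causes were not tested.

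Without 1 library, the count of called genes ran from 3 to 3 in CNA, 2 to 4 in PHB, 3 to 3 in CNA-SDdelta, 3 to 3 in PHB-SDdelta, 0 to 0 in CNA-KnC3HDZ, 1 to 2 in CNA-KnC3HDZ_8m, 0 to 2 in CNA-SmHOX32, 0 to 0 in CNA-PpHOX32, 5 to 5 for the average and 5 to 6 between mock groups. For differences it ran from 3 to 4 for CNA-KnC3HDZ minus CNA, 1 to 3 for CNA-KnC3HDZ_8m minus CNA-KnC3HDZ, 0 to 3 for CNA-SmHOX32 minus CNA, 0 to 2 for CNA-PpHOX32 minus CNA and 0 to 0 for the other 3.

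Replicate numbers did not pair the samples: 0 of 24 pairs correlated above 0.1 and 9 of 24 were closest to their own number. The replicate block gave 0 called genes in CNA-SmHOX32 and left the count of called wax genes within 1.5 times in the other comparisons; it could not be fitted between mock groups. CER2 in CNA-KnC3HDZ minus CNA was called under 7 of 8 alternatives. The GC correction moved the median of all genes from -0.08 to 0.08 in CNA and from -0.04 to 0.10 in PHB, and the share of higher among all calls from 50.6% to 63.9% and from 47.1% to 58.3%.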
